A study of Mus musculus with 2 samples.

Results

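Box C/D small nucleolar RNA genes, those whose symbol starts with Snord, were described in mouse liver after irradiation. All genes with such a symbol were taken from probe sets annotated with exactly 1 gene symbol, which gave 47 of 22180 genes, each with 1 probe set. The irradiated sample was liver of male C57BL/6 mice aged 9 weeks, which had received a single whole-body gamma-ray dose of 6 Gy at 4 weeks of age, at 0.81 Gy per minute under anaesthesia, with liver taken 5 weeks later. The control sample was liver from the same strain, sex and age with no irradiation, and the labels do not say whether it was anaesthetised or whether either RNA came from 1 animal or a pool. C57BL/6 is an inbred laboratory strain. Each group had 1 Affymetrix whole-transcript array, so no difference below has a replicate check, no test was possible and the spread between animals is unknown. Values are log2 RMA values as deposited, differences are irradiated minus control on that log2 scale, and a gene is called lower or higher when it differed by at least 1.5-fold.

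Box C/D snoRNAs are short nuclear RNAs named for a pair of conserved sequence boxes. Each base-pairs with a target RNA, mostly ribosomal RNA, and directs the methyltransferase fibrillarin to add a methyl group to a ribose there. A few instead assist the cleavage of the ribosomal RNA precursor. In mammals most of them are not transcribed from their own promoters but lie in introns of host genes, often genes for ribosomal proteins, nucleolar proteins or non-coding RNAs, and are released when the host transcript is spliced and the intron trimmed. RefSeq genes of assembly GRCm38.p6 included all 47 genes and classed 46 of them as snoRNA and Snord73b as snRNA. The 47 lay on 16 chromosomes, with annotated lengths between 48 and 221 bases and a median of 68.

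The Snord genes were mostly lower on the irradiated array. Of the 47, 20 were at least 1.5-fold lower and 0 at least 1.5-fold higher, whereas 0.888% of all 22180 genes were as much lower and 1.23% as much higher. At 2-fold, 11 of the 47 were lower and 0 higher, against 0.144% and 0.266% of all genes. A difference below 0 was found for 35 of the 47, against 49.7% of all genes. The median difference of the 47 was -0.41 and their range was -2.28 to 0.56, while all genes had a median of 0 and their central 95% lay between -0.42 and 0.46.

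Low values on an array carry more noise, so the members were also split by their mean over both arrays, at 6.06, the median of all deposited values. This is a rank, not a measured background. The mean reached it for 31 Snord genes, of which 14 were 1.5-fold lower and 0 higher, where 0.588% and 1.03% of the 13272 genes with such a mean were. At 2-fold, 10 of the 31 were lower and 0 higher, against 0.181% and 0.271%. Of the 31, 25 were below 0, against 50.4% of genes in that range, and their median difference was -0.50. Of all 78 genes in that range that were 1.5-fold lower, 14 were Snord genes, and of the 24 that were 2-fold lower, 10 were. The other 16 Snord genes had a mean under 6.06, with 6 lower, 0 higher and a median of -0.41.

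**Figure D1:**
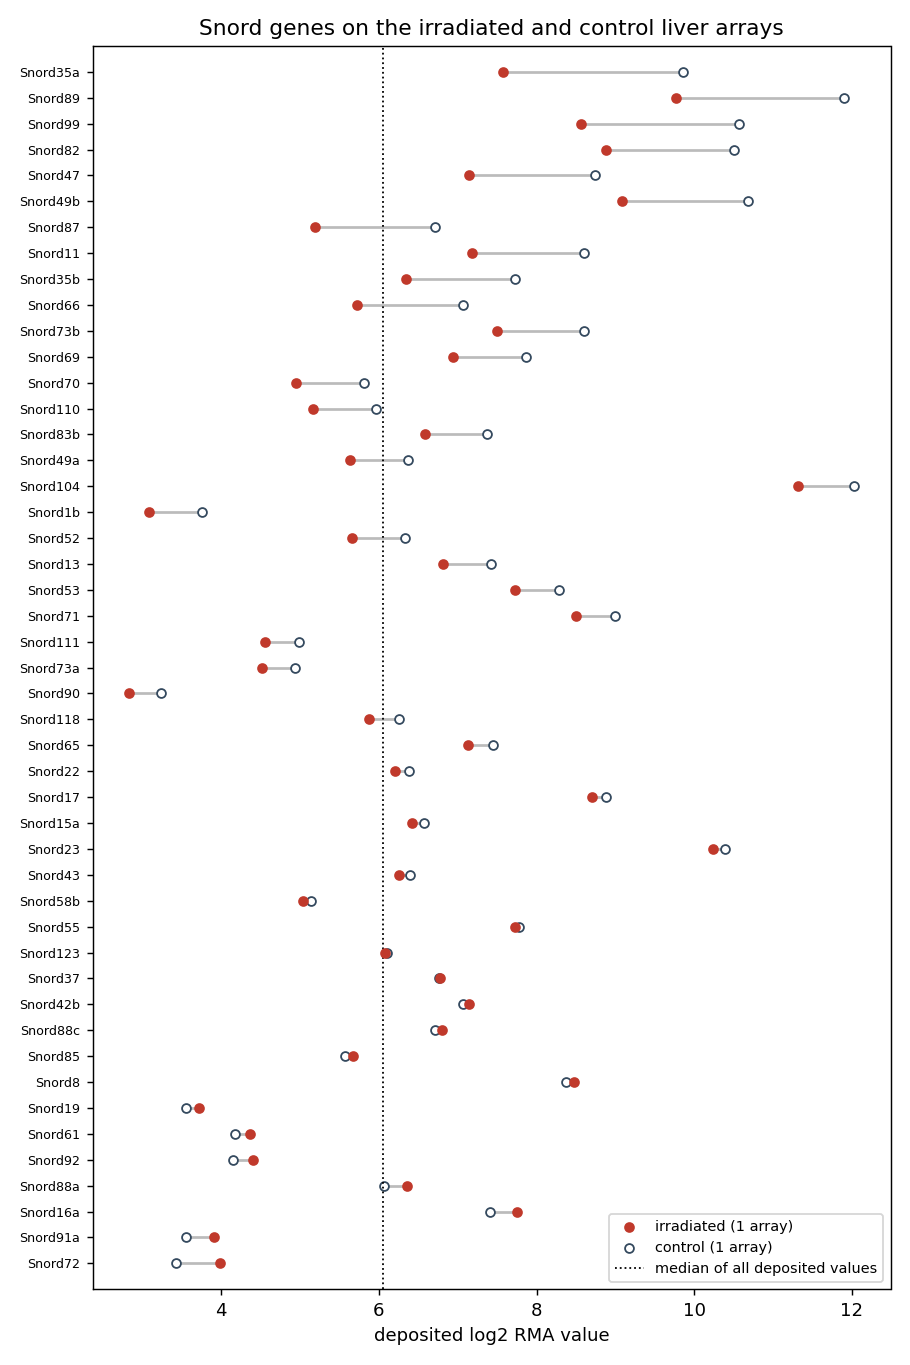
Deposited log2 RMA values (horizontal axis) of the 47 Snord genes, 1 row per gene ordered by difference, with the irradiated array as filled points and the control array as open points. The filled point lies left of the open one in the upper 35 rows, and the widest gaps are those of Snord35a (7.57 irradiated, 9.85 control) and Snord89 (9.77 irradiated, 11.90 control).

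**Figure D2:**
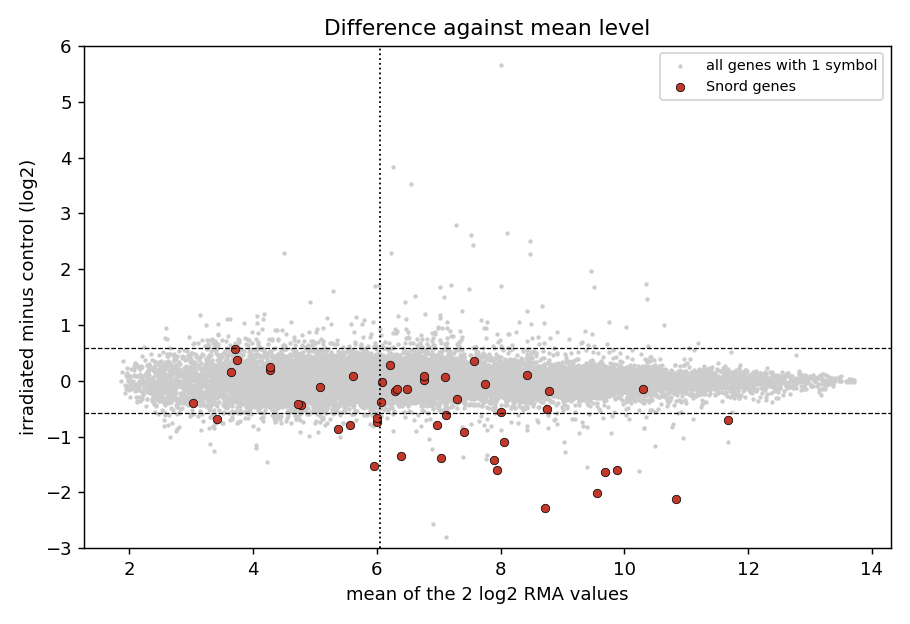
Difference between the arrays (irradiated minus control, log2) against the mean of the 2 log2 RMA values, for all 22180 genes in grey and the 47 Snord genes in red. Dashed lines mark 1.5-fold and the dotted line marks 6.06, and 14 Snord genes lie below the lower dashed line to the right of the dotted one.

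Among the members with the widest differences, 3 were at least 4-fold lower. Snord35a, which lies in the ribosomal protein gene Rpl13a, read 7.57 on the irradiated array and 9.85 on the control array, 4.86-fold lower. Snord89, for which the table held no containing gene, read 9.77 on the irradiated array and 11.90 on the control array, 4.37-fold lower. Snord99, in the non-coding host Snhg12, guides methylation of 28S ribosomal RNA in human cells and read 8.56 on the irradiated array against 10.57 on the control array, 4.03-fold lower. These 3 stayed well above the array median on both arrays, so their values do not rest on the lowest part of the scale.

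A further 3 members were about 3-fold lower. Snord82, an 18S guide in the nucleolin gene Ncl, read 8.88 irradiated against 10.51 control, 3.09-fold lower. Snord47, inside the non-coding growth arrest transcript gene Gas5, read 7.14 irradiated against 8.74 control, 3.02-fold lower. Snord49b, a 28S guide in the non-coding gene 2410006H16Rik, read 9.09 irradiated against 10.68 control, 3.02-fold lower. In this set too both arrays read above the median, and over all genes 0.0406% were 3-fold lower and 0.0947% 3-fold higher, where 6 of 47 members were lower and 0 higher. Of genes with a mean at or above 6.06, 0.0678% were 3-fold lower.

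The other members past 2-fold were spread over several kinds of host. Snord11, in Nop58, the gene of a core protein of the box C/D particle itself, read 7.18 irradiated against 8.60 control, 2.67-fold lower. Snord35b read 6.35 irradiated against 7.73 control, 2.61-fold lower. Snord73b, in the ribosomal protein gene Rps3a1, read 7.50 irradiated against 8.60 control, 2.15-fold lower. In the remaining 2 members past 2-fold the irradiated value lay under the array median. Snord66, an 18S guide in the translation initiation factor gene Eif4g1, read 5.72 irradiated against 7.06 control, 2.53-fold lower. Snord87, a 28S guide within Snhg6, read 5.19 irradiated against 6.71 control, and its mean was below 6.06.

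Differences between 1.5-fold and 2-fold were found for 9 members. Those with a mean at or above 6.06 numbered 4. Snord69, in the nucleostemin gene Gnl3, differed by -0.92, at 6.94 irradiated against 7.86 control. Snord83b, in the ribosomal protein gene Rpl3, differed by -0.79, at 6.58 irradiated against 7.37 control. Snord104, a 28S guide, differed by -0.71, at 11.32 irradiated against 12.03 control. Both values lay far above 6.06. Snord13, known as U13, pairs with the precursor of 18S ribosomal RNA and is transcribed as a gene of its own, and it differed by -0.62, at 6.81 irradiated against 7.43 control. The other 5, with a mean below 6.06, were Snord70 (-0.86), Snord110 (-0.80), Snord49a (-0.74), Snord1b (-0.68) and Snord52 (-0.67).

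Short of 1.5-fold, 11 members with a mean at or above 6.06 were below 0 on this scale. Snord53 read 7.73 irradiated against 8.28 control, a difference of -0.55. Snord71, a guide for 5.8S ribosomal RNA, read 8.50 irradiated against 9.00 control, a difference of -0.50. Snord118 is U8, which assists processing of the 5.8S and 28S part of the precursor and has a promoter of its own, and it read 5.87 irradiated against 6.26 control. The difference of Snord118 was -0.39, inside the central 95% of all genes but outside that of genes with a mean at or above 6.06, which ran from -0.36 to 0.40. Snord65, an 18S guide, was at -0.32 (7.13 irradiated, 7.45 control). The other 7 differed by less than 0.2, which many genes did. They were Snord22 (-0.18), known as U22 and needed for 18S processing in other vertebrates, the 28S guides Snord17 (-0.18), Snord15a (-0.15) and Snord55 (-0.05), the 18S guide Snord43 (-0.15), Snord23 (-0.15) and Snord123 (-0.02).

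Not every member was lower. With a mean at or above 6.06, 6 of 31 were above 0, none by 1.5-fold. Snord16a, an 18S guide in the ribosomal protein gene Rpl4, read 7.75 irradiated against 7.40 control, a difference of 0.35. Snord88a (0.29) and Snord88c (0.08) lie in the same gene, 2410002F23Rik. Snord8 (0.10), which guides methylation of the spliceosomal U6 RNA, the 18S guide Snord42b (0.07) and the 28S guide Snord37 (0.01) differed little, and Snord37 changed sign when the arrays were rescaled (-0.01 after centring each array on its median). Among members with a lower mean, Snord72 read 3.99 irradiated against 3.42 control. That difference of 0.56 was the highest of the 47 and stopped short of 1.5-fold. The other 9 members with a low mean that were not called ranged from -0.42 (Snord111) to 0.36 (Snord91a).

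Members were grouped by a fixed list of targets known for human guides of the same name, which covered 26 of the 47. The list is not complete, so some of the other 21 can also guide ribosomal RNA. Counts, medians and ranges per class therefore hold for the listed members only. Of 10 members listed for 18S ribosomal RNA, 5 were 1.5-fold lower and 0 higher. They had a median difference of -0.47 and a range of -1.63 (Snord82) to 0.35 (Snord16a). Of 12 members listed for 28S ribosomal RNA, 5 were lower and 0 higher. These had a median of -0.30 and a range of -2.01 (Snord99) to 0.36 (Snord91a). Lower members were thus found among guides for both large ribosomal RNAs, and each class also held members near or above 0. The 2 snoRNAs that assist precursor cleavage, Snord22 and Snord118, were not called. Of the 21 members with no target assigned here, 10 were lower and 0 higher, with a median of -0.55. All shares are to be read against 0.888% of all genes.

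Most members sit inside another gene, and the arrays measured many of these hosts separately. The gene table gives no strand here, so a host was taken as any gene whose span contains the snoRNA. There was exactly 1 such gene for 39 members, several for 5 and none for 3 (Snord13, Snord89 and Snord118). For 32 members the single host had a probe set with 1 symbol, 24 distinct hosts in all. None of the 24 hosts was 1.5-fold lower or higher, and their differences had a median of -0.04 and a range of -0.44 to 0.15. All 24 had a mean at or above 6.06, where 0.588% of genes were lower and 1.03% higher. With such shares, no call among 24 genes does not set the hosts apart from other genes. The 32 members themselves had a median of -0.25, with 11 of them lower and 0 higher, and 21 of the 32 had a lower difference than their host.

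The hosts of the lowest members differed little. Ncl, host of Snord82, encodes the nucleolar protein nucleolin and read 9.75 irradiated against 9.66 control, a difference of 0.09. Snhg12, host of Snord99, read 6.32 irradiated against 6.22 control, a difference of 0.11. 2410006H16Rik, host of Snord49b, read 9.29 irradiated against 9.19 control, a difference of 0.10. These 3 hosts were slightly higher on the irradiated array while the snoRNA inside each was at least 3-fold lower. Nop58, host of Snord11, differed by -0.14, and Rps3a1, host of Snord73b, by -0.05. Gnl3, host of Snord69, differed by -0.29 and Rpl3, host of Snord83b, by 0.02. The 9 hosts of the 11 lower members ranged from -0.44 (1110038B12Rik, host of Snord52) to 0.11 (Snhg12). The hosts Rpl13a and Gas5 were measured only by probe sets shared with another symbol, where Flt3l with Rpl13a differed by -0.08 and Gas5 with Mir5117 by 0.05, the second with both values under 5. Snord87 lies within both Mcmdc2 (-0.37, low on both arrays) and Snhg6, which differed by -0.02.

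Hosts of the named members short of 1.5-fold were not called either. Wdr43 was at -0.32, Snhg1 at -0.30, Rpl23a at -0.08, Snhg18 at -0.04 and 2410002F23Rik at -0.02. Nop53 was at 0.04, Eef2 at 0.06, Snx5 at 0.07, Rpl4 at 0.10 and Rps3 at 0.15. Where several genes contain a member, Ap1g1 (Snord71) was at 0.07 and Chd8 (Snord8) at -0.08.

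Across the 32 pairs the difference of the snoRNA and that of its host had a Pearson correlation of -0.18 and a Spearman correlation of -0.12. These are descriptions over genes read from the same 2 arrays, and some pairs share a host. Members in protein-coding hosts were lower in 7 of 25 cases (median -0.15), and members in non-coding hosts in 4 of 7 (median -0.67), with all 7 below 0. Of these 7, 3 lie in 2410006H16Rik. With a mean at or above 6.06, 5 of 15 (median -0.15) and 2 of 5 (median -0.32) were lower. Over all genes 0.888% were lower, and 0.588% of those with such a mean. The difference between these kinds of host was not tested. Probes for a snoRNA also match the host intron that holds it, so mature snoRNA and unspliced host transcript cannot be told apart in these values.

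**Figure D3:**
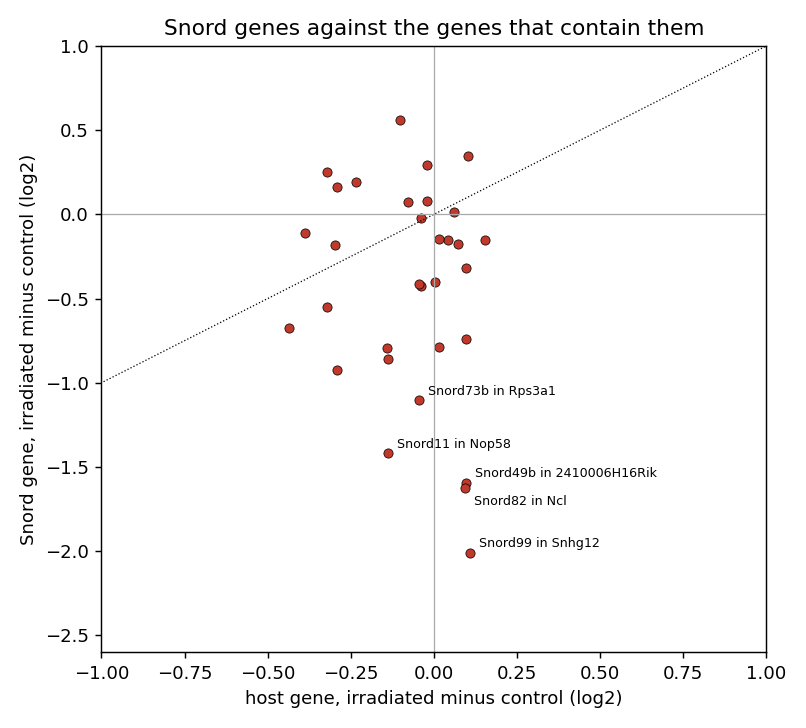
Difference of each Snord gene (vertical axis, irradiated minus control, log2) against that of the gene containing it (horizontal axis, same scale), for the 32 pairs with a single measured host. The dotted line marks equal differences, the 5 members at least 2-fold lower are named, and all hosts lie between -0.44 and 0.15 while the Snord genes reach -2.01.

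Members of 1 host did not move to the same extent. In 2410006H16Rik, Snord49b differed by -1.59, Snord49a by -0.74 and Snord65 by -0.32, a spread of 1.27 over 3 snoRNAs of the same gene. In Gnl3, a gene of ribosome formation, Snord69 differed by -0.92 and Snord19 by 0.16, the second at a low level on both arrays. In Rps3a1 Snord73b differed by -1.10 and Snord73a by -0.41, and in Nop58 Snord11 by -1.42 and Snord70 by -0.86. The pair in Rpl3 (Snord83b at -0.79, Snord43 at -0.15) and that in Wdr43 (Snord53 at -0.55, Snord92 at 0.25) also differed from each other. Snord49a, Snord19, Snord73a, Snord70 and Snord92 had a mean below 6.06, so their contrasts set a brighter probe set against a low one. Snord49b and Snord65, and the pair in Rpl3, had means at or above 6.06. Of the 7 genes that contain several members, the closest pair was Snord88a and Snord88c, 0.21 apart.

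Host genes of snoRNAs often begin their transcripts with a run of pyrimidines, the feature that marks messages of the translation machinery. The windows printed here show the annotated start of hosts of strongly lower members, followed by hosts whose member was near or above 0. Each window holds 25 bases before and 25 bases from the start onward, from RefSeq on GRCm38.p6, and capitals mark runs of at least 7 pyrimidines (C or T) on the strand of the gene.
Rpl13a (Snord35a), chr7:45128721-45128770, minus strand: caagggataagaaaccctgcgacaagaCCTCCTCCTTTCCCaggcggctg
Snhg12 (Snord99), chr4:132308653-132308702, plus strand: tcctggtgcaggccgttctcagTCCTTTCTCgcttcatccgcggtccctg
2410006H16Rik (Snord49b), chr11:62602852-62602901, plus strand: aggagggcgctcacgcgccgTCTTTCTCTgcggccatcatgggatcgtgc
Ncl (Snord82), chr1:86359431-86359480, minus strand: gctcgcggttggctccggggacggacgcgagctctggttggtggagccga
Nop58 (Snord11), chr1:59684981-59685030, plus strand: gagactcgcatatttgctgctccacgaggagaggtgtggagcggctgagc
Rpl4 (Snord16a), chr9:64173362-64173411, plus strand: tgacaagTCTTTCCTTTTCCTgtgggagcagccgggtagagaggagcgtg
Eef2 (Snord37), chr10:81176606-81176655, plus strand: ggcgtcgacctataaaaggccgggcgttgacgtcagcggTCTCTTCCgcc

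Such a run was found in 12 of 25 start windows (48%), from the 24 of 31 single containing genes that the table holds, against 29.3% of all 32851 windows. Counted by gene it was 11 of 24, since 1110038B12Rik has overlapping windows with the same run. A run could lie anywhere in the window, also wholly before the annotated start, as in Rpl4. Both kinds of host held lower members. Of 13 members in hosts with a run, 7 were 1.5-fold lower, and of 18 members in hosts without one, 7 were. A run is a description of these letters, and start sites in the annotation can lie some bases from those used in liver.

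Probe sets that pair a Snord symbol with other symbols were kept apart, since they can also measure the other gene. There were 33, with 18 distinct combinations of values and symbols, of which 7 were 1.5-fold lower and 0 higher. The probe set of Snord34 with Rpl13a read 5.61 irradiated against 7.70 control, 4.28-fold lower, and that of Snord32a with Rpl13a, a guide for both large ribosomal RNAs, read 9.81 irradiated against 11.05 control, 2.36-fold lower. Another from the same gene, Snord33 with Mir5121 and Rpl13a, read 8.75 irradiated against 9.04 control, a difference of -0.29. These 3 shared probe sets of Rpl13a thus differed by between -2.10 and -0.29. Snord68 with Rpl13 and Rpl13-ps6 had the lowest difference of the 18, -2.48, at 4.33 irradiated against 6.81 control.

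The imprinted Snord116 cluster, whose loss is linked to Prader-Willi syndrome in humans and which is known mainly from neurons, appeared only among these shared probe sets. A set of 16 probe sets annotated with Gm26504, Snord116l1 and Snord116l2 all carried the same pair of values, 5.82 irradiated against 6.98 control, 2.22-fold lower, and so counts as 1 measurement. Gm26504 also had a probe set of its own, with 6.31 irradiated against 7.36 control, a difference of -1.05. Of the neuronal markers Snap25, Rbfox3 and Syt1, none was 1.5-fold different (0, -0.24 and -0.33), and their part in this value was not tested.
Of the other shared probe sets with a mean at or above 6.06, 8 differed by between -0.47 (Snord15b with Rps3) and 0.14 (Snord4a with Tlcd1). In order these were also Snord14e with the chaperone gene Hspa8 (-0.43), Snord2 with Eif4a2 (-0.23), Snord45c with Rabggtb (-0.21), Snord57 with Nop56 (-0.20), Snord14a with Rps13 (-0.07) and Snord67 with Ckap5 (0). Snord1a with its host Snhg16 was the highest at 0.35. The 4 others with a low mean were Snord12 with Zfas1 (-1.09), Snord1c with Snord1b on 2 probe sets (-0.96 and -0.85) and Snord7 with further symbols (-0.15).

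The proteins that clothe box C/D snoRNAs are needed for the RNAs to be stable, and their genes were set beside the members. Of 16 listed genes of snoRNA particle proteins, assembly and transport, 13 had a probe set with 1 symbol. None of the 13 was 1.5-fold lower or higher, and 10 were below 0. All 13 had a mean at or above 6.06, where 0.588% of genes were lower, 1.03% higher and 50.4% below 0. No call among 13 genes is therefore usual. The median difference of the 13 was -0.13, as it was over the 12 without Naf1, which acts on the other snoRNA class. Of the core proteins, Nop56 differed by -0.14, Nop58 by -0.14 and Snu13, which binds the box C/D motif first, by -0.02. The probe set of the methyltransferase gene Fbl, shared with Tulp4, read 8.29 irradiated against 8.66 control, a difference of -0.38. Among assembly factors Nufip1 differed by -0.30, Ruvbl2 by -0.16, Ruvbl1 by -0.13, Znhit6 by -0.08, Rpap3 by -0.05, Pih1d1 by 0.03 and Znhit3 by 0.09. Nolc1, a nucleolar chaperone of snoRNA particles, was at -0.37 (8.12 irradiated, 8.49 control), the lowest of the 13. The cap-modifying enzyme gene Tgs1 differed by -0.21, Naf1 by 0.07, and Phax, shared with Aldh7a1, by -0.08.

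Other short RNAs were compared because a column kit, as used for these samples, recovers very short RNAs incompletely, and how far recovery differed between the samples was not tested. Box H/ACA snoRNA genes (Snora), which guide pseudouridine formation, had a median of -0.26 over 26 genes, with 8 lower and 1 higher. Their differences ranged from -1.39 (Snora15) to 0.99 (Snora44, 11.13 irradiated against 10.14 control). The 5 Cajal body RNA genes (Scarna) ranged from -0.36 to 0.20, with 0 lower and 0 higher. MicroRNA genes (symbols starting with Mir) had a median of 0.04 over 483 genes, with 8 lower and 20 higher. Of these, 375 had a mean below 6.06, and the 108 others had 0 lower, 5 higher and a median of 0.04. The share of lower genes was thus 42.6% for Snord, 30.8% for Snora and 1.66% for Mir, with no test between them. Probe sets of Mir genes can also read precursor or host transcripts. Their values therefore cannot show how far very short RNAs were recovered. Among structural RNAs Rn7sk was at 0.05, the minor spliceosome RNAs Rnu11 and Rnu12 at 0.19 and 0.13, Terc at -0.39, Rpph1 at -0.31 and the Y RNA Rny3 at -0.45. The ribosomal RNA gene n-R5s136 was at -0.43 (8.68 irradiated, 9.11 control) and Rnu5g at -0.54, low on both arrays. Rny1 differed by -1.46, low on both arrays, and Rnu3a, a gene of the U3 box C/D snoRNA that does not carry a Snord symbol, by -0.34, also low.

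**Figure D4:**
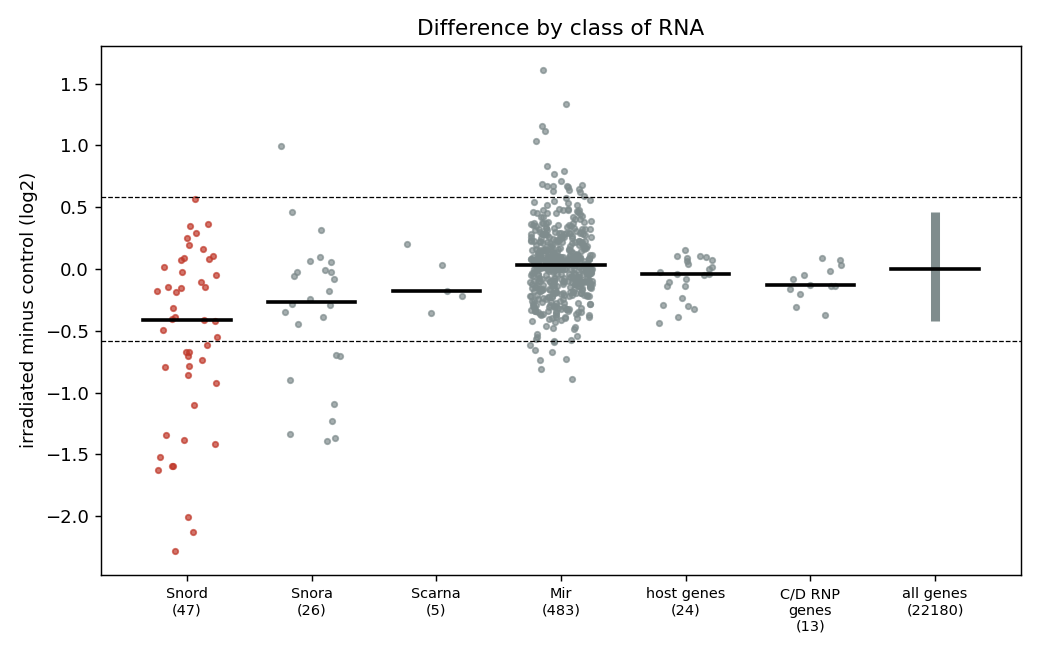
Difference (irradiated minus control, log2) of each gene by class, with a black bar at the median and the number of genes under each class, and for all genes a grey bar over the central 95%. Dashed lines mark 1.5-fold. The Snord median is -0.41 and the Snora median -0.26, while Mir genes (0.04), host genes (-0.04) and particle genes (-0.13) lie nearer 0.

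Length and level were compared with the difference across the 47 members. The Spearman correlation of the difference with annotated length was 0.02, and the 22 members shorter than 68 bases and the 25 others held 10 lower genes each. With a mean at or above 6.06, the 11 shorter members had 6 lower (5 at 2-fold) and a median of -0.92, and the 20 others 8 lower (5 at 2-fold) and a median of -0.29, a difference that was not tested. The Spearman correlation of the difference with the mean level of both arrays was -0.44. Both are descriptions over genes that share the same 2 arrays. Levels of different probe sets are not comparable as amounts. Of the 20 lower members, 14 had a mean at or above 6.06, a share near that of all members (31 of 47).

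Of the cell type markers, those of cholangiocytes and smooth muscle were mostly higher on the irradiated array. Hepatocyte markers had differences between -0.02 and 0.03 over 6 genes, and all 6 read over 11 on both arrays, where bright probe sets can fail to show a difference. Cholangiocyte markers were above 0 in 6 of 6 measured genes, 4 of them by 1.5-fold. They were uneven, with Muc1 at 2.62, but Krt7 at 0.29 and Sox9 at 0.19. Their summed linear level, set mostly by the brightest probe sets, was 1925 irradiated against 649 control. Smooth muscle markers were above 0 in 5 of 5, 4 of them by 1.5-fold, with sums of 2588 irradiated against 911 control. Of 3 pancreatic acinar markers Ctrb1 alone was higher (2.65), while Kupffer, endothelial and lymphocyte markers held no gene 1.5-fold different. Whether cells or levels within cells differed was not tested, nor the part of these cells in the snoRNA values. In a bulk sample fewer cells that hold an RNA and less of it per cell cannot be told apart.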

How the data were processed

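Liver RNA of 1 irradiated and 1 control sample was measured on 2 Affymetrix arrays. The deposited log2 values, 41345 per array, were made by the authors with RMA in Affymetrix Expression Console 1.3.1, per the submitters' processing notes. RMA normalizes the arrays to each other, so a change in total RNA per cell cannot be seen. The log base was read from the values, with medians of 6.07 (irradiated) and 6.05 (control). Genes came from GEO's platform annotation, which can be old: 23521 probe sets had 1 symbol, 1814 several and 16010 none. For a symbol with several probe sets, the one with the highest mean was used. Differences were computed with pandas 2.3.3 and counted at 1.5-fold beside all genes. The procedure was run on simulated data with planted differences and small noise, which checks the computation and not calls from 1 array per group. Near-identical snoRNA copies can cross-hybridise. The number of arrays limits the precision. Named were all Snord genes with a mean of at least 6.06, shared probe sets at that level, their hosts and the particle genes. Members with lower means are named where a count or range calls for it. Hosts were to be on the same strand, which the gene table used here does not give, so containment alone was used. Starts came from RefSeq. Alternatives changed the floor, fold size, probe set, scaling, offset and membership. The members and lists were chosen with earlier results of these data known.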

Additional observations from a re-analysis of the deposited data

How the results depend on the processing

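No paired analysis was possible because the 2 arrays are 1 irradiated and 1 control. The count of 20 lower and 0 higher of 47 Snord genes was 20 and 0 when the arrays were centred, quantile-normalized or fitted by loess. It was 14 with 32 added on the linear scale and 15 when the floor replaced values beneath it. With shared probe sets added, 27 of 65 were lower. With 1 member per containing gene, that of the highest mean, 18 of 39 were lower, an alternative chosen after seeing the data. No share over all genes is given for changed scaling, offset, floor or membership. At 2-fold the count over the 47 was 11 and at 3-fold 6. Leaving out imprinted clusters or choosing another probe set could not change it, since no member was imprinted or had several probe sets. Of the 14 lower members with a mean at the floor, 6 were 3-fold lower, and with a floor at the 75th percentile 9 of 15 members were lower. The median of all members (-0.41) was -0.20 with the offset, -0.15 with values set to the floor and -0.50 with 1 member per containing gene. That of the members at the floor (-0.50) was -1.10 with the 75th percentile, -0.58 with a floor on the higher array or with 1 member per containing gene, and -0.35 with shared probe sets. Of all 47 members, none past 1.5-fold changed sign under the alternatives of scaling, probe set, offset and floor replacement, though members with both values under the floor then read 0. The offset and the set floor shrink differences of low values by construction.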

Other observations

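RefSeq classes 8 further measured genes as snoRNA under clone or predicted names. Of these, Gm26504, annotated together with Snord116 copies on other probe sets, was the single one at least 1.5-fold lower, at 6.31 irradiated against 7.36 control, and 0 were higher. Several are clone-named genes with low values. DQ267102 differed by 0.14 and AF357355 by 0.02, and AF357425 read 5.14 on both arrays. DQ267101 differed by -0.28, AF357426 by -0.27, AF357399 by -0.45 and Gm12238 by 0.09.

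Snora75, the box H/ACA snoRNA known as U23, is known to share the host Ncl with Snord82 in mammals. It read 5.81 irradiated against 6.71 control, a difference of -0.90, where Ncl differed by 0.09. Snora75 was singled out after its value was seen, and Snora genes ranged from -1.39 (Snora15) to 0.99 (Snora44).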
